A study of Mus musculus with 12 samples.

Results

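The genes of the 2′-5′ oligoadenylate synthetase (OAS) family were examined in RNA-seq of MEF cells, that is, mouse embryonic fibroblasts, which had been isolated from C57BL/6 embryos at embryonic day 13.5 and had become immortal in culture without an added oncogene. The 7 members, Oas1a, Oas1b, Oas1g, Oas2, Oas3, Oasl1 and Oasl2, were taken by symbol, and all 7 were listed in both deposited tables, among 43280 entries in one and 23930 in the other. The members had been selected on their levels in these same libraries, in both comparisons, so their values are given as a description and without p-values. There were 4 conditions of 3 libraries each, 12 libraries in all. 2MUT cells carried FLAG-tagged human IDH2 R172S, a cancer-associated mutant of isocitrate dehydrogenase 2 that produces 2-hydroxyglutarate (2-HG), in the retroviral vector pMXs-puro, and Control cells carried the vector without an insert. Both lines had been selected with puromycin, and whether they are clonal is not given in the sources used here. 2-HG(+) cells received 300 μM of a cell-permeable octyl ester of (R)-2-HG for 24 h, and 2-HG(-) cells are labelled as given DMSO. The study's text also calls the latter non-treated. The comparisons ask what the IDH2 mutant and its product each did to the transcriptome.

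OAS enzymes bind double-stranded RNA, a product of many viral infections, and then join ATP into short chains with 2′-5′ bonds, called 2-5A. The chains act as a second messenger of the antiviral response, and phosphodiesterases of the cell degrade them. Genes of the family are classical targets of interferon, and fibroblasts are a cell type in which this response has long been studied.

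All libraries of 2-HG(+) were below all libraries of 2-HG(-) for each of the 7 OAS genes, beside 16.6% of all entries with reads. In 2MUT this held against Control for 3 of the 7, beside 15.5%, and the groups overlapped for 4. The members were chosen on these values, so nothing is read from these counts. The ratio of pooled reads of the control group to the other was higher in the 2-HG experiment for 6 of the 7. Oasl2, the member with the most reads behind it, was at 97.8 ± 17.0 RPM (reads per 1000000 reads counted on genes, SD, n = 3) in Control, 40.1 ± 1.65 RPM in 2MUT, 79.1 ± 6.02 RPM in 2-HG(-) and 5.93 ± 0.769 RPM with 2-HG. Oas1b was the member whose mean was higher in 2MUT, with overlapping groups. Of other pathway genes tested, 23 of 31 fell and 2 rose after 2-HG (limma, Benjamini-Hochberg adjusted), beside 16.7% and 16.1% of all genes. In 2MUT 8 of 30 fell and 3 rose, beside 17.3% and 16.5%. Of the 23, 3 entered the fit only through the 2-HG(-) libraries and could pass only as lower. These genes were listed with earlier results of these data known, so their counts are a description.

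All members lie on mouse chromosome 5 in GRCm38 (GENCODE M21), in 2 clusters 5792417 bases apart. The first holds Oasl2, from 114896936 to 114912234 on the forward strand, and Oasl1, from 114923240 to 114937915 on the same strand and 11005 bases away. The second holds Oas2 (120730333 to 120749853), Oas3 (120753098 to 120777661), Oas1g (120876142 to 120887613) and Oas1a (120896256 to 120907521) on the reverse strand, with Oas1b (120812635 to 120824163) on the forward strand between Oas3 and Oas1g. Coding lengths of the longest annotated coding transcripts are 1104 bases for Oas1a and Oas1g, 2256 for Oas2, 3417 for Oas3, 1536 for Oasl1 and 1527 for Oasl2. Oas1b is annotated as a polymorphic pseudogene with a coding length of 756 bases. The C57BL/6 strain is known to carry an Oas1b allele with an early stop codon, while the full-length allele of other mice gives resistance to flaviviruses.

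The coding sequences of Oas1a and Oas1g are identical at 96.7% of 1104 aligned bases, so reads counted on either of these genes may come from the other. Oas1b is less close, with 81.3% identity to Oas1a and 82.3% to Oas1g, and Oasl1 and Oasl2 share 62.2% of aligned bases. Oasl1 is overlapped by the antisense gene Gm13822, and Oas2 by Gm43068 on the opposite strand. Whether counting used the strand is not given in the sources used here, and without it reads of a target inside an overlap cannot be told apart. The positions of the targets were not used here.

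The stretch just upstream of Oas1a, Oas1g and Oas3 is shown because it holds GAAA, any 2 bases and GAAA again, the core of the interferon-stimulated response element to which interferon-activated transcription factors are known to bind. Sequences are from RefSeq on GRCm38.p6, which had a promoter of 300 bases, 250 before and 50 after the start, for 5 of the 7 members (Oas1a, Oas1g, Oas3, Oasl1 and Oasl2). Each line gives 60 bases, 5′ to 3′, on the reverse strand, and capitals mark the motif. The windows are chr5:120907526-120907585 for Oas1a, chr5:120887614-120887673 for Oas1g and chr5:120777710-120777769 for Oas3.
Oas1a: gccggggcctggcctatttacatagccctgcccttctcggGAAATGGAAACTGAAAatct
Oas1g: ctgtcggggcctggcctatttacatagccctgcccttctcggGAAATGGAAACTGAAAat
Oas3: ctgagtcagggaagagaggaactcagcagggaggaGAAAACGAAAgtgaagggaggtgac

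In Oas1a and Oas1g the capitals hold 2 overlapping matches, from -20 to -11 and -14 to -5 in Oas1a and from -18 to -9 and -12 to -3 in Oas1g, counted from the RefSeq start. Their promoters are alike beyond the motif, with 261 of 294 aligned bases identical (88.8%). Oas3 has a single match from -75 to -66. Both strands were searched, and no match to these letters was found in the windows of Oasl1 and Oasl2. Across 32851 RefSeq promoters of the same length, 1131 (3.44%) held at least 1 match and 74 (0.225%) held 2 or more. Among other genes of the pathway described further on, 12 of 35 with a promoter in the table held it. A match describes the sequence and is not evidence of binding.

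Reads counted on genes ranged from 6472436 to 7313602 per library in Control and 2MUT and from 14959318 to 18363768 in the 2-HG experiment. The limit of detection was set at 3 reads, which equals 0.41 to 0.464 RPM in the first table and 0.163 to 0.201 RPM in the second. Ion AmpliSeq libraries amplify 1 short target per transcript, so values are compared between libraries for a gene and not between genes. The labels do not say whether libraries of a group came from separate cultures, so the tests measure the spread between these libraries. Fibroblast markers (Col1a1, Col1a2, Pdgfra, Pdgfrb, Vim, Thy1 and Fn1) summed to between 12980 and 22800 RPM in each library. The 4 epithelial markers summed to at most 0.6 RPM, the 4 endothelial ones to at most 2.94 RPM and those of leukocytes and macrophages to at most 14.7 RPM. Endogenous mouse Idh2 averaged 77.3 ± 5.54 RPM over the Control libraries and 49.6 ± 6.39 RPM over those of 2MUT (SD), and whether reads of the human transgene were counted on it was not analysed here.

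The OAS genes were first compared between 2MUT and Control. Differences are log2 fold changes on the log2(RPM + 1) scale, which understates the difference of genes with few reads, so the ratio of pooled reads per read counted on genes is also given with a 95% interval for counting error only. Of the 7 members, 6 had a mean of at least 1 RPM and entered the fit, and Oasl1 did not. limma called 3 of them lower in 2MUT (Oas1a, Oas2 and Oasl2) and 0 higher, beside 17.3% of 11065 genes called lower and 16.5% called higher. In RPM, the 3 libraries of 2MUT all lay below the 3 of Control for 3 of the 7 members (Oas2, Oasl1 and Oasl2), beside 15.5% of all entries with reads, and they lay above for none, beside 16.4%. The median log2 fold change of the 6 was -0.78, and that of all genes tested was 0.01. Since this comparison was in view when the members were chosen, nothing is read from these counts.

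Oas1a encodes an active synthetase of the small OAS1 type. Its levels were 23.8, 21.7 and 13.5 RPM in the Control libraries and 14.4, 9.08 and 8.12 RPM in the 2MUT libraries. The groups overlapped, since the lowest Control library was below the highest 2MUT library. Pooled reads were 412 in Control and 214 in 2MUT, 1.88 times as many per read counted in Control (95% counting interval 1.59 to 2.23), and the log2 fold change was -0.84 ± 0.25 (SE). The call on Oas1a was lost when the first or the second Control library, or the second or the third 2MUT library, was left out on its own, with log2 fold changes from -1.08 to -0.69 over the 6 fits.

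Oas1g, the near-identical neighbour of Oas1a and likewise an active synthetase, was at 4.74, 5.84 and 3.15 RPM in Control and at 4.02, 2.49 and 2.48 RPM in 2MUT. As for Oas1a, the third Control library was the lowest of its group and the first 2MUT library the highest of its own, and the groups overlapped. The log2 fold change of Oas1g was -0.47 ± 0.26 (SE), which limma did not call, and the pooled read ratio was 1.54 (1.10 to 2.15) in favour of Control. The fold change was -0.31 (log2) without the second Control library, and the counting interval then held 1 (0.899 to 1.93), as it did without the second (0.985 to 2.08) or the third (0.973 to 2.07) 2MUT library.

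Oas1b was the member with the higher mean in 2MUT. It was at 8.29, 8.12 and 7.93 RPM in Control, the smallest spread of any member in that group, and at 7.26, 8.93 and 11.4 RPM in 2MUT. The 2MUT libraries lay on both sides of the Control libraries, with 171 reads pooled in Control and 191 in 2MUT. Its log2 fold change was 0.14 ± 0.20 (SE), and it turned to -0.01 without the third 2MUT library. The counting interval of the ratio of Control to 2MUT, 0.706 to 1.08, held 1.

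Oas2, a larger synthetase with repeated OAS units, was at 10.4, 6.98 and 5.06 RPM in Control and at 1.24, 2.64 and 1.79 RPM in 2MUT. Every 2MUT library was below every Control library. Pooled reads were 156 and 39, a ratio of 3.90 (2.73 to 5.69), and the log2 fold change was -1.53 ± 0.28 (SE).

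Oas3, the largest synthetase and an efficient sensor of long double-stranded RNA, was at 2.37, 2.71 and 4.24 RPM in Control and at 1.08, 1.03 and 2.48 RPM in 2MUT. The third library was the highest in both groups, and the third 2MUT library lay above the lowest Control library. The log2 fold change was -0.72 ± 0.29 (SE) and was not called, and the pooled read ratio was 2.01 (1.30 to 3.17), with an interval of 0.982 to 2.72 without the third Control library. Without the third 2MUT library the log2 fold change was -0.97 and limma called it.

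The OAS-like genes encode proteins with ubiquitin-like domains at the end. Oasl1 has no synthetase activity and is known to hold back translation of Irf7, while mouse Oasl2 keeps the activity. Oasl1 was near the limit of detection, with 3, 3 and 11 reads in the Control libraries and 0, 1 and 0 reads in 2MUT, and its ratio of 16.6 had a counting interval from 2.60 to 693. The ratio was 8.96 (1.09 to 412) without the third Control library and 10.7 (1.68 to 448) without the third 2MUT library, and without the second no 2MUT read remained. Oasl2 was at 114, 79.9 and 99.8 RPM in Control and at 38.3, 41.6 and 40.3 RPM in 2MUT. The 2MUT libraries of Oasl2 lay close to each other and far below the lowest Control library, and the log2 fold change was -1.25 ± 0.14 (SE). With 2060 and 825 pooled reads its ratio was 2.44, with a counting interval of 2.25 to 2.64 that was the narrowest for its size.

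**Figure D1:**
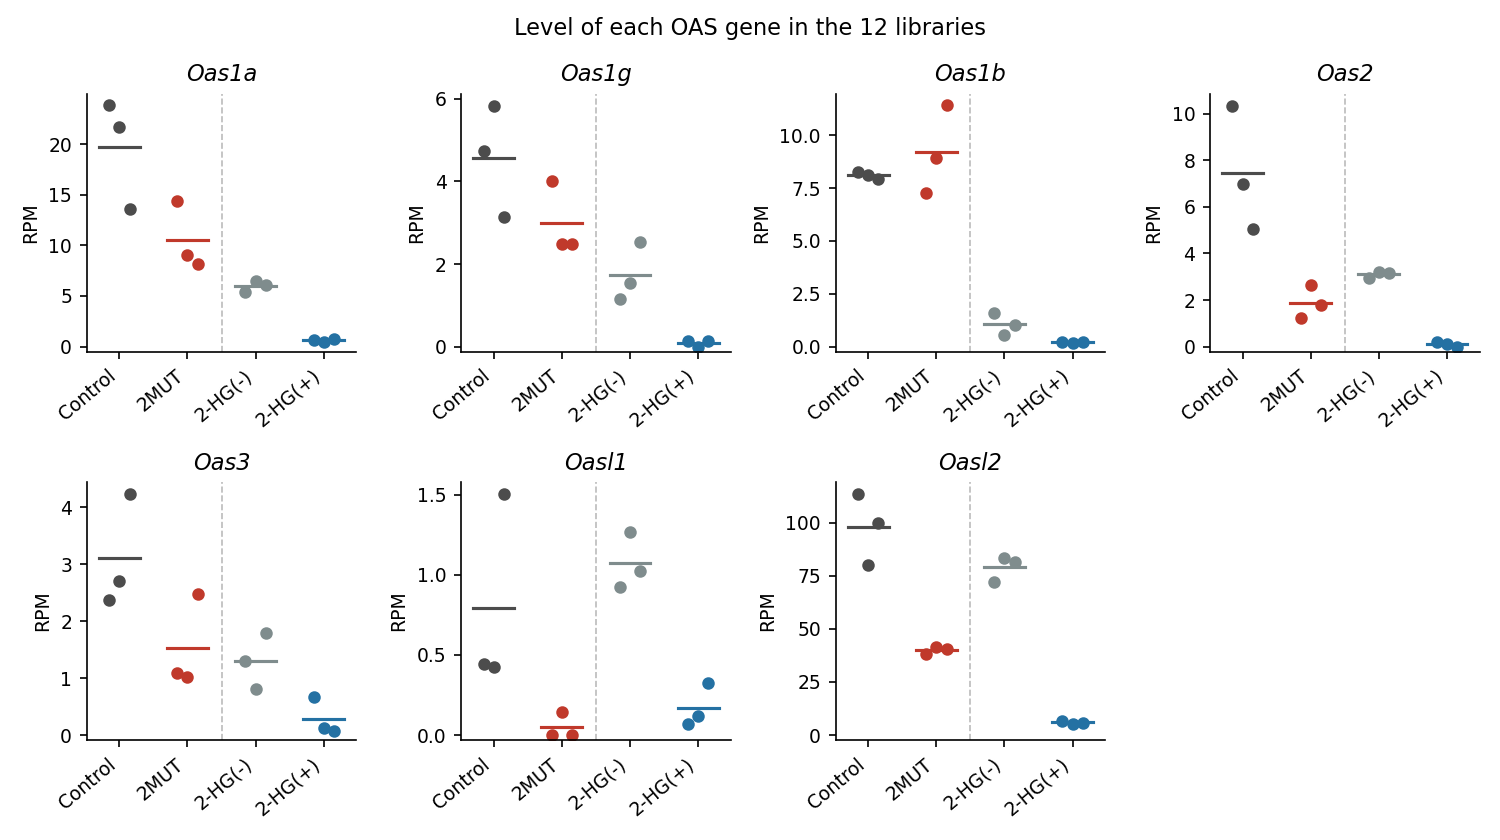
Level of each OAS gene in RPM (vertical axis, from 0) in the 3 libraries of each group (points, with the group mean as a line), with the experiments separated by a dashed line. The 2-HG(+) points lie below the 2-HG(-) points in every panel, whereas Control and 2MUT points overlap for Oas1a, Oas1g, Oas1b and Oas3.

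The 2-HG experiment was then examined in the same way. Mean RPM was lower in 2-HG(+) than in 2-HG(-) for all 7 members, and the 3 libraries of 2-HG(+) all lay below the 3 of 2-HG(-) for all 7, beside 16.6% of all entries with reads in that table (13.7% had all 3 above). Only Oas1a, Oas2 and Oasl2 reached a mean of 1 RPM and entered the fit, and limma called these 3 lower, beside 16.7% of 10384 genes called lower and 16.1% called higher. Oas1a and Oas2 reached that mean only through the 2-HG(-) libraries. As before, this comparison was known when the members were chosen, and nothing is read from the counts. In bulk RNA, fewer cells that express a gene and less RNA per cell cannot be told apart.

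Oas1a was at 5.34, 6.48 and 6.06 RPM in 2-HG(-) and at 0.661, 0.481 and 0.719 RPM in 2-HG(+). The 2-HG(-) libraries agreed more closely than the Control libraries had, and the 2-HG(+) libraries held 10, 8 and 11 reads. Pooled reads were 296 and 29, a ratio of 9.61 (6.55 to 14.6), and the log2 fold change was -2.10 ± 0.15 (SE).

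On Oas1g there were 21, 23 and 42 reads in the 2-HG(-) group and 2, 0 and 2 with 2-HG, so the latter group was under the limit of 3 reads in every library. Its ratio was 20.3 with an interval from 7.63 to 76.0, and 13.1 (4.93 to 49.1) without the second 2-HG(+) library. Oas1b, which had not been lower in 2MUT, had 29, 8 and 17 reads without 2-HG and 3 reads in each library with it. The ratio of Oas1b was 5.65 (2.77 to 13.0), and its 2-HG(-) libraries, from 0.535 to 1.58 RPM, were already well below the Control level of the first experiment.

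Oas2 was at 2.94, 3.21 and 3.18 RPM in 2-HG(-) and had 3, 2 and 0 reads with 2-HG. The 2-HG(-) libraries were close to one another, and the treated ones were at or under the limit of detection. Pooled reads were 155 and 5, a ratio of 29.2 (12.2 to 91.2). Without the first 2-HG(+) library the ratio was 49.5 (13.5 to 413). The log2 fold change of Oas2 was -1.90 ± 0.15 (SE) with 1 RPM added before the logarithm and was as low as -4.85 in another setting.

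Oas3 was at 1.31, 0.802 and 1.80 RPM in 2-HG(-) and at 0.661, 0.12 and 0.065 RPM in 2-HG(+). The first 2-HG(+) library held 10 of the 13 pooled reads of its group and came closest to the 2-HG(-) range. Its ratio was 4.78 (2.61 to 9.45), and 14.1 (4.61 to 69.9) without that library.

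For Oasl1 there were 17, 19 and 17 reads without 2-HG and 1, 2 and 5 with it, a ratio of 6.24 (2.95 to 15.2) that was 11.2 (3.64 to 56.2) without the third 2-HG(+) library. Oasl2 was at 72.3, 83.6 and 81.5 RPM in 2-HG(-) and at 6.81, 5.41 and 5.55 RPM in 2-HG(+). Both groups of Oasl2 were tight and far apart, with 3935 and 278 pooled reads, a ratio of 13.3 (11.8 to 15.1) and a log2 fold change of -3.54 ± 0.13 (SE).

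**Figure D2:**
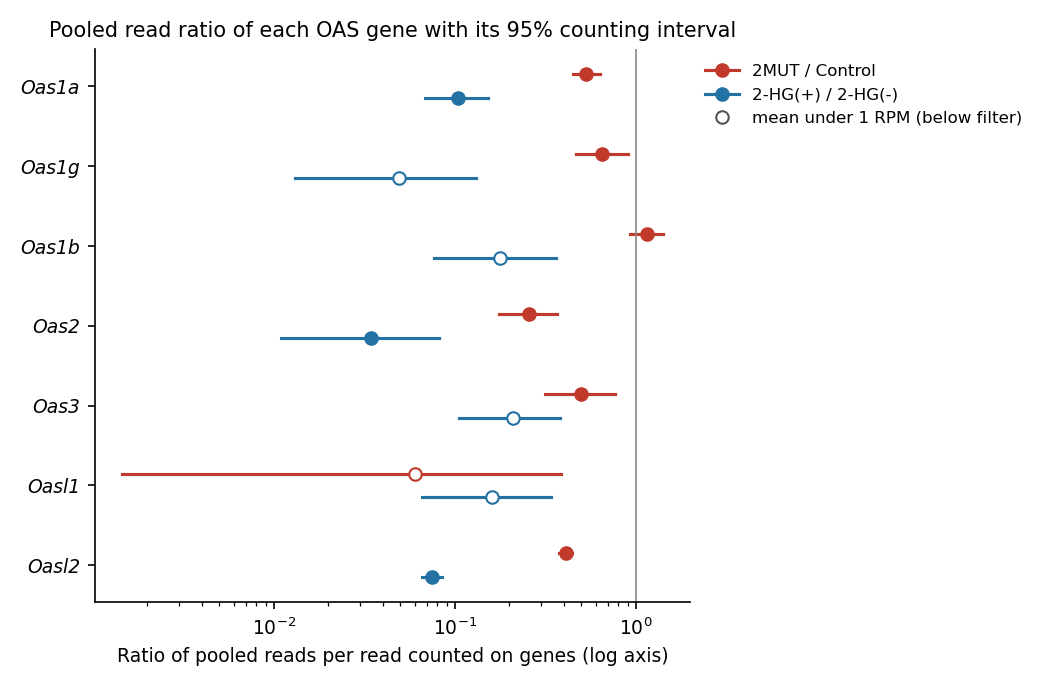
Ratio of pooled reads, each group divided by its reads counted on genes, of 2MUT to Control (red) and of 2-HG(+) to 2-HG(-) (blue), on a log axis with 95% counting intervals as lines and open points for members with a mean under 1 RPM. Each 2-HG point lies to the left of the 2MUT point of the same gene except for Oasl1, where the 2MUT interval rests on 1 read.

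Set side by side, the counting intervals of both experiments were apart for Oas1a, Oas1b, Oas1g, Oas2 and Oasl2 and overlapped for Oas3 and Oasl1, although the intervals of Oas3 were apart without the first 2-HG(+) library. On the log2(RPM + 1) scale the difference between the 2MUT and the 2-HG fold change was 2.28 ± 0.19 (SE) for Oasl2, 1.26 ± 0.32 for Oas1a and 0.36 ± 0.33 for Oas2. These counting intervals do not include the spread between libraries, and the experiments differ in the vector as well as in the source of 2-HG. They also differ in puromycin selection, in stable expression against 24 h of exposure, in the DMSO named in the labels and in depth. These differences cannot be told apart, and no sequenced group carried wild-type IDH2.

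The tables were normalized separately and list different entries, so the order of levels across all 4 groups is a description. The control groups were unlike in other genes, with the fibroblast marker Thy1 at 80.4 RPM in Control and 2.76 RPM in 2-HG(-). Pde12, a gene of 2-5A turnover, was at 4.2 RPM in Control and 68.5 RPM in 2-HG(-). Experiment and condition therefore cannot be told apart across the tables. The order was Control, 2MUT, 2-HG(-), 2-HG(+) for Oas1a, Oas1g and Oas3. Control and 2MUT overlapped in all 3 of these genes, and 2MUT and 2-HG(-) overlapped in Oas1g and Oas3. For Oas2 it was Control, 2-HG(-), 2MUT, 2-HG(+), and no neighbouring groups overlapped. Oasl2 had the same order as Oas2, with Control and 2-HG(-) overlapping. For Oas1b the order began with 2MUT and Control, which overlapped, and ended with 2-HG(-) and 2-HG(+). Oasl1 ran from 2-HG(-) through Control and 2-HG(+) to 2MUT, and only Control and 2-HG(+) were apart among its neighbours.

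The other OAS1 paralogs of the mouse, Oas1c, Oas1d, Oas1e, Oas1f and Oas1h, were all under 1 RPM on average and were not tested. The most reads were on Oas1c, with 26 pooled in 2-HG(-), from libraries of 8, 13 and 5, and 7 in 2-HG(+), from libraries of 2, 2 and 3.

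Next, genes that act with the OAS family were examined. A list of 42 genes, other than the members, covered the other OAS1 paralogs, turnover of 2-5A, sensing of double-stranded RNA, interferon signalling and its inhibitors, and other interferon-stimulated effectors. It was chosen with earlier results of these data known, so its counts are a description. Of 30 tested in 2MUT, 3 rose and 8 fell, beside 16.5% and 17.3% of all genes, with a median log2 fold change of -0.11 against 0.01 for all genes. Of 31 tested after 2-HG, 2 rose and 23 fell, beside 16.1% and 16.7% of all genes, with a median of -0.75 against -0.02. Of these 23, Usp18, Rsad2 and Mx2 averaged under 1 RPM in 2-HG(+) and entered the fit only through the 2-HG(-) libraries, so they could pass only as lower. With each library left out in turn, 6 of the 11 calls in 2MUT (Zbp1, Ifnar1, Ifnar2, Irf1, Ifi44 and Bst2) and 22 of the 25 after 2-HG were made in all 6 fits.

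Of 3 genes for the turnover of 2-5A, 2 rose after 2-HG, beside 16.1% of all genes. Abce1, known as a ribosome recycling factor and as an inhibitor of the 2-5A pathway, rose after 2-HG by 0.63 on the log2 scale (limma adjusted p = 0.0013). Pde12, a phosphodiesterase that degrades 2-5A, rose by 0.59 (limma adjusted p = 0.0069). Akap7, which holds another 2-5A phosphodiesterase activity, did not pass (log2 fold change 0.05, adjusted p = 0.75). In 2MUT none of these 3 genes passed the limma test, and their log2 fold changes ran from -0.22 to 0.02.

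Among 8 genes for sensors of double-stranded RNA and their adaptors, 7 fell after 2-HG, beside 16.7% of all genes. Zbp1, a sensor of Z-form nucleic acids, fell most (log2 fold change -3.12, limma adjusted p = 5.6e-07), followed by Dhx58, which encodes the RIG-I-like regulator LGP2 (-1.76, adjusted p = 2.1e-05). The sensor genes Ddx58 (RIG-I), Tlr3 and Ifih1 (MDA5) fell by 1.09, 1.08 and 0.87, and Eif2ak2 (the kinase PKR) and Adar, an RNA editing enzyme, by 0.75 and 0.68 on the log2 scale. The pooled read ratios of 2-HG(-) to 2-HG(+) were 2.15 for Ddx58, 2.23 for Tlr3 and 2.59 for Ifih1. Mavs, the adaptor downstream of RIG-I and MDA5, did not pass (-0.03, adjusted p = 0.83). In 2MUT, 6 of the 8 were tested. Zbp1 fell there too (-1.35, adjusted p = 1.0e-04), Mavs fell (-0.40, adjusted p = 0.019) and Ddx58 rose (0.34, adjusted p = 0.040). The Ddx58 call was made in 1 of the 6 fits with a library left out and that of Mavs in 4.

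Of 10 interferon signalling genes tested after 2-HG, 7 fell, beside 16.7% of all genes. The largest falls were in Irf7, an interferon-induced activator of interferon genes (log2 fold change -2.84, limma adjusted p = 1.9e-06), Irf9 (-2.20, adjusted p = 1.0e-05) and Stat2 (-1.44, adjusted p = 0.00026), Irf9 and Stat2 being parts of the complex that acts downstream of the interferon receptor. None of Irf7 (-0.20, adjusted p = 0.36), Irf9 (0.08, adjusted p = 0.70) and Stat2 (0.11, adjusted p = 0.57) passed in 2MUT. The difference between comparisons passed limma for all 3 (2.64, 2.28 and 1.55, adjusted p = 5.9e-07, 1.9e-06 and 0.00016). These 3 were named for their falls after 2-HG. The test was added after the values had been seen, so it partly restates that choice. Irf1 fell in both, by 0.89 in 2MUT (adjusted p = 7.1e-05) and by 0.56 after 2-HG (adjusted p = 0.018), although the latter call was made in 2 of 6 fits with a library left out. The receptor gene Ifnar1 rose in 2MUT (0.38, adjusted p = 0.010) and fell after 2-HG (-0.49, adjusted p = 0.0088), while Ifnar2 fell in 2MUT (-0.54, adjusted p = 0.0048) and was at the threshold after 2-HG (-0.52, adjusted p = 0.0496), a call made in 2 of 6 fits with a library left out and in 4 of 10 other settings. Jak1 and Irf3 passed in neither comparison. Ifnb1, the gene of interferon beta, was under 1 RPM throughout, with 3 reads in Control, 15 in 2MUT, 20 in 2-HG(-) and 3 in 2-HG(+).

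Ifit3 and Socs1 were listed at 0 in all 6 libraries of the first table and were not listed in the other. Isg15 was listed at 0 there but for 4 reads in 1 library of 2MUT, and it was likewise not listed in the other. Whether these entries were measured at 0 or are targets without a usable value is not known. Among feedback inhibitors, Usp18, which damps receptor signalling, was at 7.86 RPM on average in 2-HG(-) and 0.575 RPM in 2-HG(+) (391 and 27 pooled reads, log2 fold change -2.50) and did not pass in 2MUT (-0.08, adjusted p = 0.77).

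Other interferon-stimulated effectors fell in 8 of 9 cases after 2-HG, beside 16.7% of all genes. Ifi44 (-3.72, limma adjusted p = 5.6e-07) and Ifit1 (-3.38, adjusted p = 6.0e-07), which binds viral RNA, fell most, and Cmpk2, Rsad2 (the antiviral enzyme viperin), Bst2 (tetherin, which retains virions on the cell) and Mx2 fell by 2.28, 1.88, 1.52 and 1.50 on the log2 scale. The pooled read ratios of 2-HG(-) to 2-HG(+) for these last 4 were 6.09, 7.14, 2.91 and 8.60. Rsad2 and Mx2 entered the fit only through the 2-HG(-) libraries and could pass only as lower. The call on Ifit2 after 2-HG (-0.43, limma adjusted p = 0.033) was made in 2 of 6 fits with a library left out. Samhd1, a dNTP hydrolase, did not pass (-0.53, adjusted p = 0.12). In 2MUT, 4 of 9 fell, namely Ifi44 (-1.08, adjusted p = 0.00081), Bst2 (-0.74, adjusted p = 0.00084), Ifi35 (-0.48, adjusted p = 0.024) and Ifit1 (-0.35, adjusted p = 0.039), and Ifit2 rose (0.36, adjusted p = 0.032). The call on Ifit1 in 2MUT was lost in each of the 6 fits with a library left out, and those on Ifit2 and Ifi35 held in 1 and 3 of them.

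**Figure D3:**
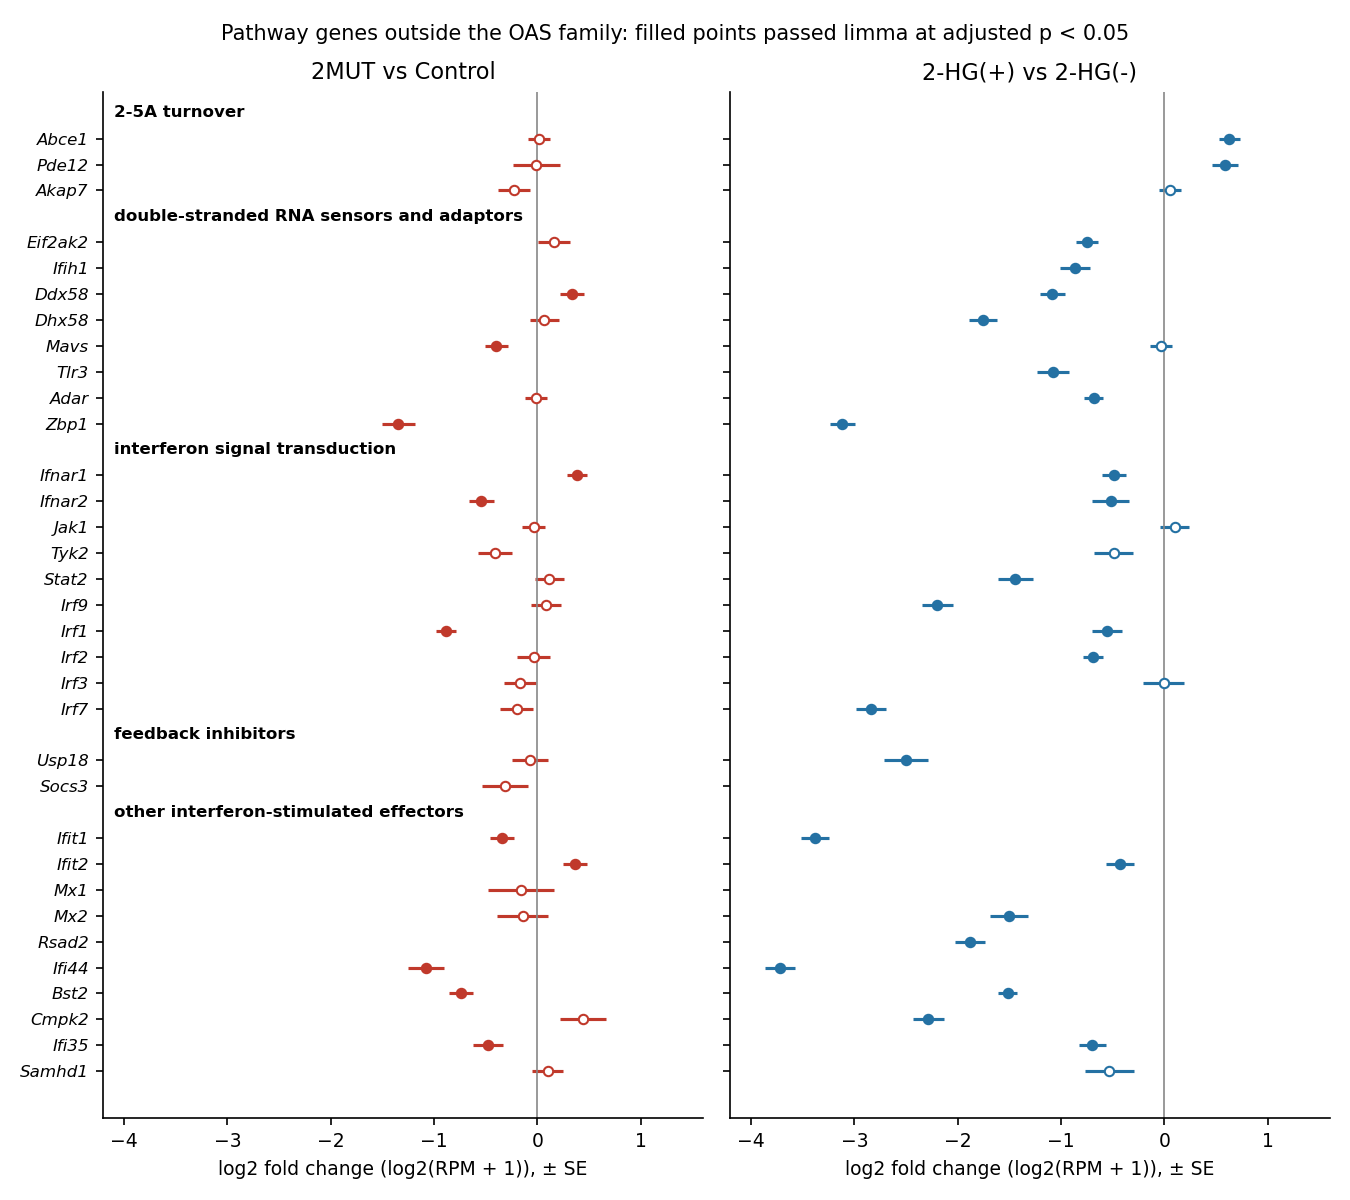
Log2 fold changes (horizontal axis, log2(RPM + 1) scale) with SE bars of the tested genes of the pathway lists in 2MUT against Control (left) and in 2-HG(+) against 2-HG(-) (right), with filled points for genes that passed limma at the adjusted threshold and no point where a gene was not tested. Most points on the right are filled and left of 0, while most on the left are open and near 0.

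Across the 28 pathway genes tested in both tables, the difference between the comparisons was called for 18. The 2MUT fold change was the higher in 17 of these, and Abce1 was the exception (-0.61, limma adjusted p = 0.0058). Usp18 and Mx2 are among the 17. Both entered the 2-HG fit only through the 2-HG(-) libraries, so they could pass there only as lower. Over all 9610 genes tested in both, 1910 differences were called in that direction and 1876 in the other. This test was added after the values had been seen.

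Fibroblast markers moved with the groups as well. In 2MUT 5 of the 7 were lower and 1 higher by limma, and their summed level was 14260 to 16250 RPM in Control and 12980 to 13430 RPM in 2MUT. After 2-HG 3 were lower and 1 higher, with sums of 21140 to 22800 RPM in 2-HG(-) and 15050 to 16060 RPM in 2-HG(+). Leukocyte and macrophage markers summed to 8.26 to 12.6 RPM in Control, 9.91 to 11.1 RPM in 2MUT, 12.3 to 14.7 RPM in 2-HG(-) and 8.93 to 11.1 RPM in 2-HG(+). Most of these sums was Cd68, which was lower in 2-HG(+) (log2 fold change -0.51, limma adjusted p = 0.021), while Ptprc, the pan-leukocyte gene CD45, had 1 read in Control and none elsewhere. Lyz2, the lysozyme gene of macrophages, was higher in 2MUT (1.24, limma adjusted p = 0.0041), with 12 reads pooled in Control and 54 in 2MUT, and had 7 reads in 2-HG(-) and none in 2-HG(+). Csf1r, the receptor gene of macrophage growth, had 4 reads in Control and 26 in 2MUT, with all 2MUT libraries higher, and overlapped between the 2-HG groups. Itgam had 0 reads in Control, 3 in 2MUT, 0 in 2-HG(-) and 3 in 2-HG(+), where all libraries of the last group were higher. Adgre1, listed in the second table only, had 1 read in each of its groups. The leukocyte and macrophage sums therefore rest on 5 markers in the first table and 6 in the second. Endothelial markers summed to 0.957 to 1.18 RPM in Control, 1.03 to 2.94 RPM in 2MUT, 0.3 to 0.803 RPM in 2-HG(-) and 0.33 to 0.914 RPM in 2-HG(+). Among them Cdh5 had 0 reads in Control and 15 in 2MUT, with reads in every 2MUT library. The other endothelial markers did not differ in this way. Pecam1 had 22 reads in each of these groups, Kdr had 1 in each and Tek had 0. Of the epithelial markers, Epcam and Krt18 were at 0 in all 12 libraries and Krt8 had at most 1 read in any. Cdh1 had 0 reads in Control, 3 in 2MUT, 24 in 2-HG(-) and 7 in 2-HG(+), where all libraries of the last group were lower. The part of other cell types in the values of the OAS genes was not tested.

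Finally, the genes whose pattern was most like that of the family were listed. A profile was log2(RPM + 1) minus the mean of the control group of the same table, and the mean profile of Oas1a, Oas2 and Oasl2, the members tested in both tables, was compared with 9607 other genes over the 12 libraries. Pearson's r with that mean, which includes the members themselves, was 0.985 for Oasl2, 0.975 for Oas1a and 0.939 for Oas2. The 10 most similar other genes were Bst2 (0.990), Apol9a (0.987), Nfix (0.986), Txndc16 (0.984), Id3 (0.983), Ogn (0.983), Serpina3g (0.981), Gbp2 (0.980), Apol9b (0.979) and Kng1 (0.979). These values have no p, since libraries of a group share their condition and control groups are centred on 0 by construction. The size of the changes was not part of the measure and varied among the 10. Nfix, a transcription factor, was at -0.40 in 2MUT and -0.68 after 2-HG on the log2 fold change scale, and Serpina3g, a serine protease inhibitor, at -2.35 and -3.83. Ogn, which encodes the matrix proteoglycan mimecan, had -1.08 and -2.18, and Gbp2, an interferon-induced GTPase, had -0.85 and -1.70.

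**Figure D4:**
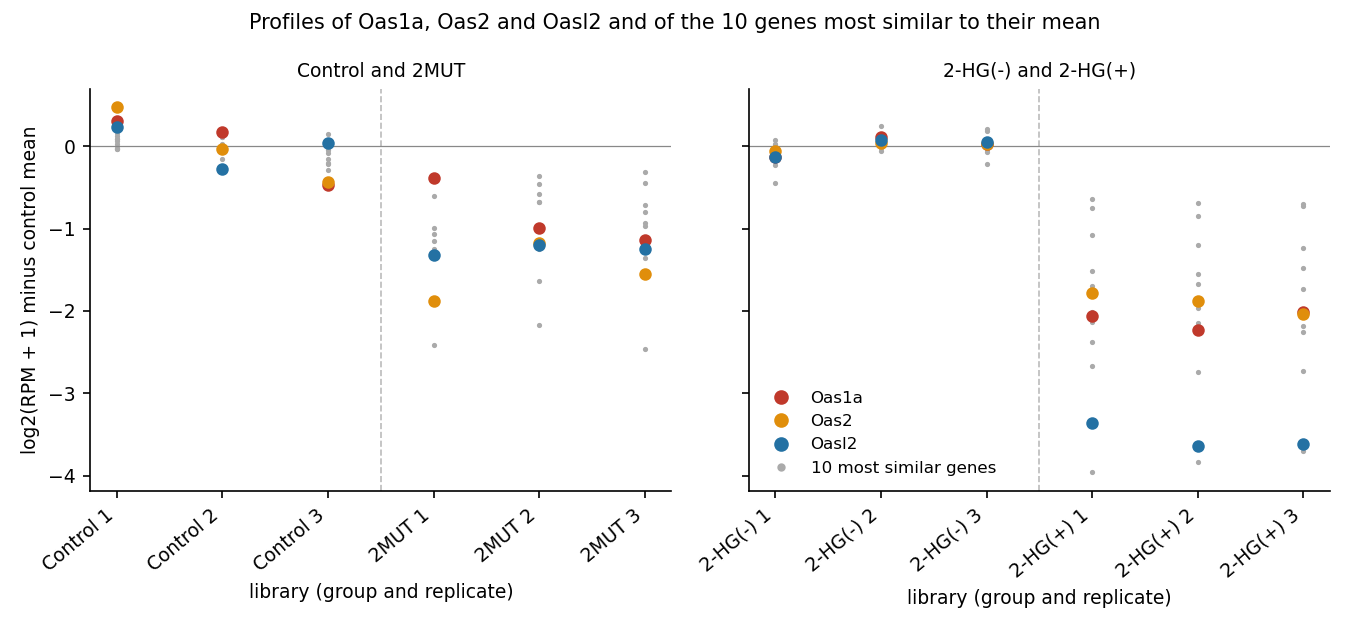
Log2(RPM + 1) minus the mean of the control group of the same table (vertical axis) in each library (horizontal axis, by group and replicate) for Oas1a, Oas2 and Oasl2 (coloured) and for the 10 most similar genes (grey), with Control and 2MUT on the left and the 2-HG experiment on the right. The 2-HG(+) points of all 13 genes lie below 0, and Oasl2 is among the lowest there.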

How the data were processed

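The study measured RNA of 12 libraries by Ion AmpliSeq. The authors aligned reads with TMAP to the AmpliSeq mouse reference, counted them with the AmpliSeqRNA plug-in (5.2.0.3, Torrent Suite 5.2.2) and deposited RPM, reads per 1000000 reads counted on genes, in 2 tables. A genome build is not given in the sources used here. Groups came from the sample labels, and 0 columns were left unmapped. The members and gene lists were chosen with earlier results of these data known. Named genes are the members, pathway genes that were tested, markers, Idh2 and the 10 genes most like the mean member profile. Beyond this rule, Ifnb1, Ifit3, Socs1, Isg15, Oas1c, Oas1d, Oas1e, Oas1f and Oas1h, which were not tested, were named after their values were seen.

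Tests used limma 3.58.1 (R 4.3.3) with a mean-variance trend on log2(RPM + 1), for genes that averaged 1 RPM or more across a comparison's 6 libraries, with Benjamini-Hochberg adjustment over all of them and a threshold of 0.05. Differences between comparisons used the 12 libraries. Whole reads were recovered from RPM (100% of values up to 20 reads were whole within 0.1) and used in alternative fits by edgeR 4.0.16 and DESeq2 1.42.0. Without a filter, edgeR called 10.9% of 18584 genes lower in 2MUT and 11.2% of 18150 after 2-HG. Counting intervals are exact, conditional on the pooled reads. The other alternatives were limma with 0.1 RPM added, with values below 1 RPM raised to 1, unfiltered, filtered at 10 RPM, after quantile normalization or median-of-ratios scaling, without moderation, with a replicate block and with each library left out. The fits were tested on simulated data. Annotation came from GENCODE M21, and coding sequences were aligned locally with Biopython 1.88. The authors' own fold changes were not used. Some genes of the lists are not reported here and were left out of their counts.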

Additional observations from a re-analysis of the deposited data

How the results depend on the processing

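The members called lower after 2-HG were 3 in the main analysis (16.7% of all genes), 7 with no filter (9.45%), 7 with edgeR on whole reads with no filter (11.2%, an alternative chosen after seeing the data) and 1 with a filter at 10 RPM (15.5%), as more or fewer members entered the test. With each library left out they numbered 3 to 4 (beside 11.4% to 15.2% of all genes, the fourth entering the test when a 2-HG(+) library was left out), and in 2MUT 2 to 3 (13.4% to 16.9%). Pathway genes that rose in 2MUT were 1 to 3 with a library left out, beside 11.5% to 17.3% of all genes (3 with all libraries). Those that fell were 5 to 8, beside 13.4% to 16.9%, with 5 without 2MUT replicate 3. A per-gene test without moderation called fewer of all genes (lower, 11.1% against 17.3% in 2MUT and 11.0% against 16.7% after 2-HG). It left 4 lower pathway genes in 2MUT, against 8, with 19 lower after 2-HG, against 23. After 2-HG 1 was higher, against 2, beside 10.6% of all genes called higher by that test. Oas1a in 2MUT was not called by it. The cause was not tested. Oas1b in 2MUT ranged from -0.0084 to 0.286 with a library left out, and the negative value came without 2MUT replicate 3. Oas3 in 2MUT was called without that library. The calls on Oas2 and Oasl2 kept direction and side of the threshold in both comparisons under every setting in which they were tested, with log2 fold changes of Oasl2 from -1.39 to -1.14 in 2MUT and from -3.74 to -3.48 after 2-HG.

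The replicate numbers showed no pairing of the samples. Deviations of same-numbered samples correlated at 0.071, 0.029 and 0.032 in the first table and at -0.457, -0.159 and 0.057 in the second. Differently numbered samples of the second table correlated from -0.414 to 0.480. Whether libraries shared a batch under other numbers was not tested. With the replicate number as a block, 4 members were lower in 2MUT (18.0% of all genes), Oas3 being added at -0.72, and 3 after 2-HG (12.4%), while 8 and 21 pathway genes were lower and 3 and 2 higher. Pooled read ratios with a library left out were also added after seeing the data. Scaling moved the median of all genes by under 0.1 on the log2 scale. Depth limits what can be said of Oas1b, Oas1g, Oas2, Oas3 and Oasl1 after 2-HG, where most treated libraries held 5 or fewer reads.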
